A study of Mus musculus with 419 samples.

Results

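B cells are the antibody-producing lymphocytes of the spleen, lymph nodes and blood. They are defined by an antigen receptor whose signal passes through a pair of associated chains, CD79A and CD79B. Kinases carry that signal inward, co-receptors set its strength, and the transcription factor PAX5 keeps the cell committed to the B lineage. In other organs B cell transcripts come mainly from circulating and resident B cells.

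The 8 genes described here are Cd79a and Cd79b (the signalling chains of the B cell receptor), Ms4a1 (the surface protein CD20), Cd22 (an inhibitory co-receptor that binds sialic acids), Pax5, Blk (a kinase of the Src family), Cr2 (the complement receptor CD21) and Fcer2a (the low-affinity IgE receptor CD23). They were listed by symbol as markers of B cells, with earlier results of these data known, and all 8 were found among the 55487 genes of the count table. The series is a bulk RNA-seq atlas of 419 libraries from 19 tissues of 36 CBA/CaJ mice, an inbred strain, in a model of relative energy deficiency in sport. The groups are Deficient mice (energy deficient) and Control mice (energy sufficient) of both sexes, each taken at zeitgeber time ZT17 or ZT05, the hours being counted from lights on. All mice are of the same strain and no transgene is named. How energy was restricted, and the ages, are not given in the sources used here. There were 12 females and 24 males, and the female libraries of every tissue came from the same 12 animals. Each tissue has 3 libraries in 139 of the 140 groups of sex, treatment and time, and 2 in 1.

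Library depth and RNA composition differed by sex. Totals ran from 5777450 to 53598697 counts. Mitochondrial and rRNA-like genes took 1.76 to 44.7% of the counts in females and 1.06 to 96.3% in the males numbered 33 to 62, who gave nearly all the male lung, spleen and heart libraries. In lung the share was 33.2 to 66.0% in males and 2.25 to 3.93% in females. In spleen it was 35.3 to 83.3% in 11 of the 12 males. The remaining spleen male, Control ZT05 replicate 3, was numbered 77, from a second set of males with higher numbers. It had 2.79%, beside 2.77 to 19.6% in females. All male adrenal gland and kidney libraries also came from that second set. Levels below are CPM (counts scaled to a library of fixed size) on library sizes scaled within a tissue by the trimmed mean of M-values (TMM). Changes are log2 fold changes ± SE from 1 edgeR quasi-likelihood fit per tissue, with p-values adjusted by Benjamini-Hochberg over all genes tested in that tissue. A gene is called at an adjusted p under 0.05. In bulk tissue, fewer B cells and less RNA per B cell cannot be told apart.

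The labelled tissues carried their defining transcripts, for example Sftpc at 8662 to 30480 CPM in lung and Ptprc at 151 to 1419 CPM in spleen. Ovary was the exception, where the oocyte gene Zp3 had a median of only 0.943 CPM. The tendon libraries held a median of 9327 to 10200 CPM of the muscle gene Ckm, so they contain muscle.

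Because the members moved together in lung, their promoters are shown for 4 of them, so that their letters can be set beside the expression. The sequences are RefSeq entries on GRCm38.p6, 250 bases before to 50 after the annotated start, written 5′ to 3′ on the gene's strand. Capitals mark matches, on either strand, to CCCNNGGG (a core of the EBF1 motif) or to CANCTG (an E-box).

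Cd79a: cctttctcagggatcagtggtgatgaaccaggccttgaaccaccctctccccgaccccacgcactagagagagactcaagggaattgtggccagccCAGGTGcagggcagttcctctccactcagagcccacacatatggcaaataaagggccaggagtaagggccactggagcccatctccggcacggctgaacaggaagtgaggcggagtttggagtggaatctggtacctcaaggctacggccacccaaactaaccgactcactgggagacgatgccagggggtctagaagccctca
Cd22: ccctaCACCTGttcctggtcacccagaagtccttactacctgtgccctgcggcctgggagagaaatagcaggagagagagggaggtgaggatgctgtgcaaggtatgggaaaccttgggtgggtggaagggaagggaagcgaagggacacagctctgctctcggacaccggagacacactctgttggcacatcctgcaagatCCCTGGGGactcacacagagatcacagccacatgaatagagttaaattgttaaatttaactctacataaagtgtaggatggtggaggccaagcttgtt
Cr2: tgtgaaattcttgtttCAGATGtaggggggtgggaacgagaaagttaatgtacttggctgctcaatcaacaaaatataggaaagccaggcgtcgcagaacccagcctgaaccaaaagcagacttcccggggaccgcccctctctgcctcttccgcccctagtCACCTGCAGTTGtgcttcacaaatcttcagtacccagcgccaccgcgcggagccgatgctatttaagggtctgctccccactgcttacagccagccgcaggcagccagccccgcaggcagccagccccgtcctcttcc
Pax5: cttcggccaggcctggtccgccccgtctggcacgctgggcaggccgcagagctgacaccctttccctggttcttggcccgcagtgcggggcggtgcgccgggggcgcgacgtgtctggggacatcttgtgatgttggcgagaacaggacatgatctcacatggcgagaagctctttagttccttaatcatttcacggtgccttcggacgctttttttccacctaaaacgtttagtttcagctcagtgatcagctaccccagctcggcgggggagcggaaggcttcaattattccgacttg

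These windows lie at chr7:24897247-24897546 (plus strand) for Cd79a, chr7:30878979-30879278 (minus) for Cd22, chr1:195176670-195176969 (minus) for Cr2 and chr4:44710645-44710944 (minus) for Pax5. Fcer2a has 3 annotated starts, the outermost with its window at chr8:3694125-3694424 (minus). Ms4a1, Cd79b and Blk are named only. The Cd22 window holds 1 match to CCCNNGGG, 47 bases before the start, and the other 3 printed windows hold none. That motif is found in 13.7% of 32851 mouse promoter windows of the same length. E-boxes, found in 51.4% of them, number 3 in Cr2, 1 in Cd79a, 1 in Cd22 and 0 in Pax5. Neither the octamer ATGCAAAT (1.74% of windows) nor GAGGAAGT (an ETS-type site, 3.2%) is in any of the 4. Only exact matches to these strings were counted, so an absence does not cover variant sites. A match describes these letters only.

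Spleen had by far the highest level of all 8 genes in both sexes. In females the summed level of the 8 ran from 2922 to 4383 CPM in spleen (median 3543), from 63.4 to 187 CPM in lung (median 142.5) and from 4.58 to 25.1 CPM in heart (median 14.5). Uterus (median 11.3 CPM), adrenal gland (11.01), ovary (8.75) and pituitary (6.49) followed, with ranges that overlap each other and heart. Kidney had a median of 3.70 CPM, and the 10 remaining female tissues had medians of 0.364 to 1.91 CPM. The spleen level was 32.7 ± 16.8 times the lung level of the same mouse (SD, 12 females). Lung and spleen ranges do not overlap in females, nor do lung and heart, while the neighbours from heart downward do overlap.

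In males the medians were 1693 CPM in spleen, 68.0 in heart, 48.1 in lung and 29.3 in testis. The male heart range of 18.2 to 80.5 CPM lies inside the male lung range of 18.6 to 426.5 CPM apart from its lowest library, so the order of those tissues is not beyond their spread. Per kilobase of exon, the female spleen medians were highest for the receptor chains, Cd79b at 399 and Cd79a at 271 CPM per kb. They were 118 for Ms4a1, 102 for Cr2, 85.6 for Blk, 81.1 for Cd22, 44.1 for Fcer2a and 29.1 for Pax5.

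**Figure D1:**
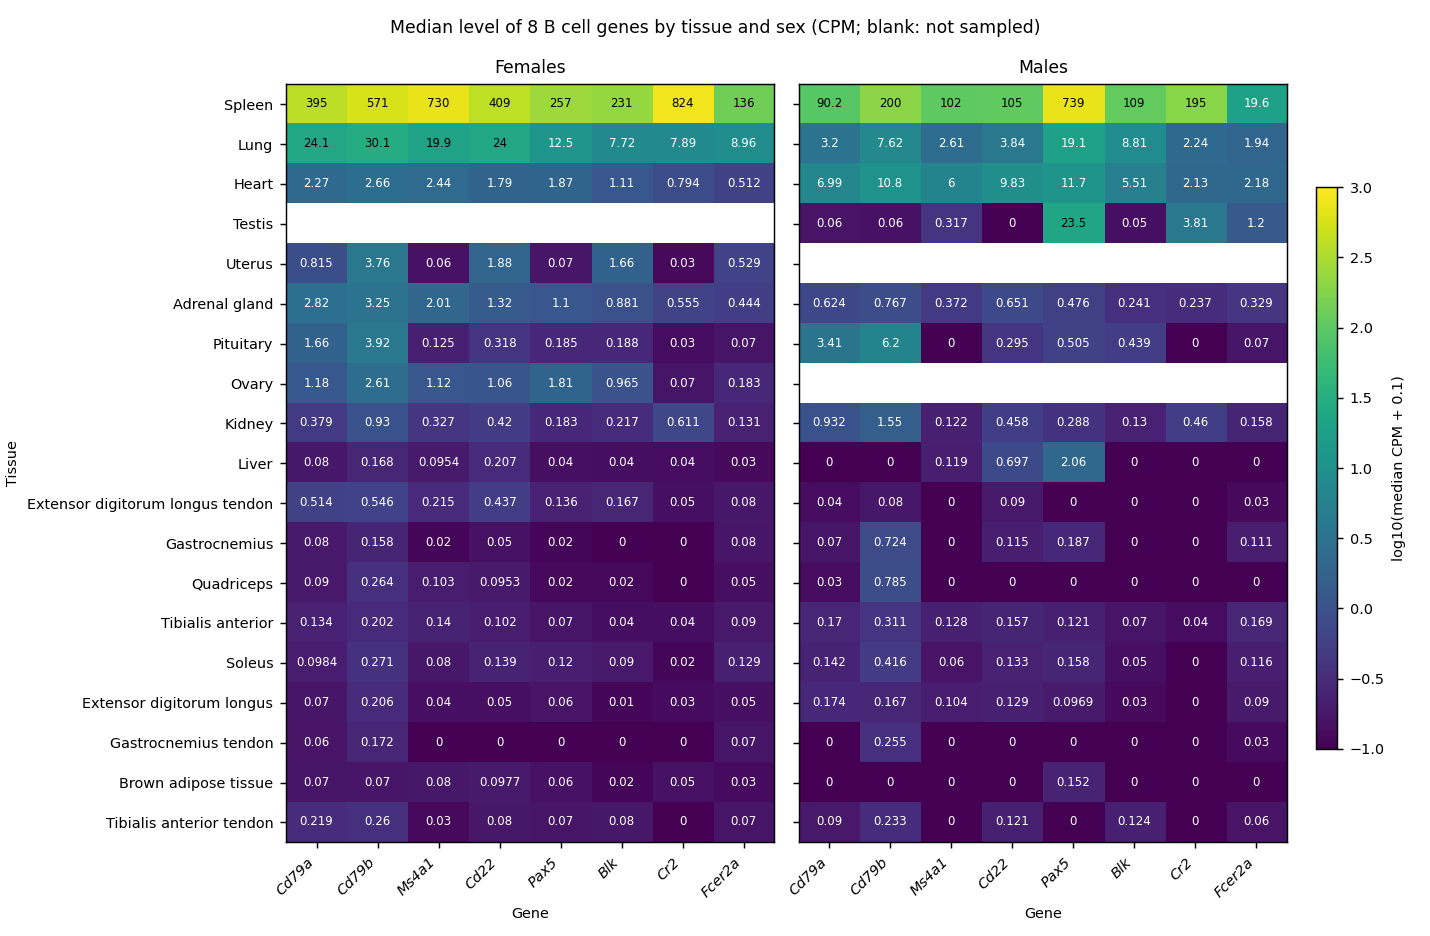
Median CPM of each of the 8 genes (columns) in each tissue (rows) for females (left) and males (right). Colour is log10 of the median CPM + 0.1, and blank rows were not sampled. Spleen is the brightest row in both panels, followed in females by lung and heart. Testis is brightest for Pax5, followed by Cr2 and Fcer2a.

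Some tissues broke the pattern of B cells as a set. In testis Pax5 ran from 19.7 to 27.5 CPM in the 12 libraries, Cr2 from 3.29 to 4.71 CPM and Fcer2a from 0.452 to 1.63 CPM. Cd79a had 0 to 0.138 CPM, Cd79b 0 to 0.119 CPM and Ms4a1 0.167 to 0.542 CPM. The receptor chains that define B cells are at or near 0 there, and Pax5 made up 75.6 to 85.4% of the counts of the 8 genes. In pituitary the reverse held. Cd79b had a median of 6.20 CPM in males and 3.92 CPM in females, and Cd79a 3.41 CPM in males and 1.66 CPM in females. Ms4a1 was at 0 counts in 8 of 12 male libraries. Gh, the growth hormone gene, is an annotated neighbour of Cd79b at a distance of 9476 bases on the same strand. Scn4a lies nearer on the other side, at 3830 bases, also on that strand. Gh ranged from 31360 to 257700 CPM in pituitary. The part of either neighbour in the Cd79b counts was not tested.

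Single libraries of other tissues also stood high for all members. The female Deficient ZT17 replicate 2 library of gastrocnemius had a summed level of 64.7 CPM, beside 0.181 to 1.10 CPM in the other 11 female libraries. The female Deficient ZT05 replicate 1 library of extensor digitorum longus tendon had 56.6 CPM, beside 0.377 to 19.3 CPM in the other 11.

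In lung the B cell genes differed by time of day in Control mice, where they were lower at ZT17 than at ZT05. In Deficient mice none was called. Of the 8 genes, 7 fell in Control mice at ZT17, with log2 changes of -1.35 to -1.92. The background was 7.38% of 18528 genes called lower in that contrast. In Deficient mice the same contrast ran from -0.14 to -0.69 with no gene called by edgeR, and a background of 0.0864% called lower. At an unadjusted p under 0.05 there were 0 of the 8, beside 10.1% of all genes.

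Values by library follow for the females. Cd79a had 29.0, 26.2 and 15.8 CPM in Deficient ZT17 females and 22.1, 25.2 and 27.5 CPM in Deficient ZT05 females. It had 10.6, 10.9 and 10.01 CPM in Control ZT17 females and 23.0, 26.9 and 29.9 CPM in Control ZT05 females. The Control ZT17 females are the lowest 3 of the 12 and overlap no other female group. How often genes at large show this order was not counted. Cd79b had 29.3, 30.8 and 20.6 CPM in Deficient ZT17 females and 29.2, 50.3 and 39.6 CPM in Deficient ZT05 females, against 14.1, 17.01 and 14.4 CPM in Control ZT17 females and 34.0, 36.6 and 40.2 CPM in Control ZT05 females. Again the Control ZT17 females stand below all others.

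Pax5, the lineage factor, had 15.6, 13 and 9.41 CPM in Deficient ZT17 females and 11.3, 16.5 and 13.6 CPM in Deficient ZT05 females. Its Control values were 4.78, 3.63 and 4.098 CPM at ZT17 and 13.6, 11.9 and 15.8 CPM at ZT05, so the Control ZT17 females were again lowest. Summed over the 8 genes, the level was 145.0, 140.1 and 89.1 CPM in Deficient ZT17 females and 153.7, 186.7 and 168.3 CPM in Deficient ZT05 females, against 65.5, 66.3 and 63.4 CPM in Control ZT17 females and 138.7, 148.7 and 173.7 CPM in Control ZT05 females. In the sum, every Deficient ZT17 female also lay below every Deficient ZT05 female. The same held for Ms4a1. It had 21.69, 19.32 and 11.96 CPM in Deficient ZT17 females and 36.22, 29.48 and 27.25 CPM in Deficient ZT05 females. How often genes at large do so was not counted. The plot of lung libraries shows these values.

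**Figure D2:**
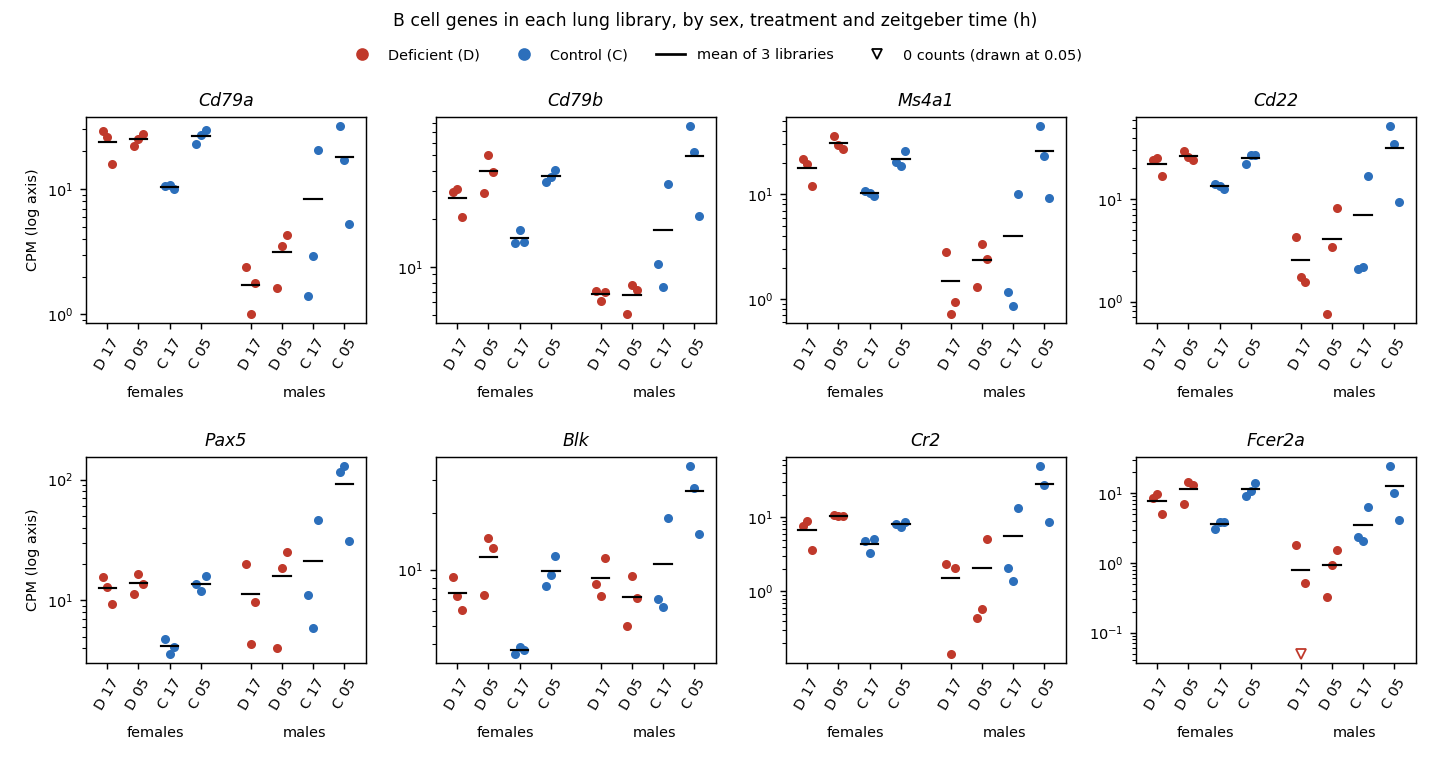
CPM (log axis) of each gene in each of the 24 lung libraries, by sex, treatment (D, Deficient, red; C, Control, blue) and zeitgeber time in hours; bars are means of 3 libraries and the open triangle is a library with 0 counts. Control females at ZT17 sit below the other female groups for most genes, and the male Control libraries spread far more widely than the male Deficient ones.

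In the fit over both sexes, Ms4a1 fell in Control mice at ZT17 by 1.90 ± 0.42 on the log2 scale (adjusted p = 0.00596) and Pax5 fell by 1.92 ± 0.45 (adjusted p = 0.00877). Fcer2a fell by 1.77 ± 0.43 (adjusted p = 0.00988), Cd79b by 1.42 ± 0.29 (adjusted p = 0.00387) and Blk by 1.35 ± 0.26 (adjusted p = 0.00287). Cd22 fell by 1.56 ± 0.45 (adjusted p = 0.0254) and Cr2 by 1.61 ± 0.53 (adjusted p = 0.0455). The change of Cd79a was -1.24 ± 0.43 (adjusted p = 0.0569) and was not called. The Cd22 call was lost on leaving out any of 6 libraries, with an adjusted p of up to 0.07 without male Control ZT17 replicate 1. The Cr2 call was lost on leaving out any of 16, with an adjusted p of up to 0.12 without that same library. The other 5 calls held with each of the 24 libraries left out in turn. Without male Control ZT17 replicate 3 all 8 were called, with changes of -1.69 (Blk) to -2.88 (Ms4a1).

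Within females fitted alone, an alternative chosen after the data were seen, 7 genes fell in Control mice at ZT17, with a background of 4.17%. These were Cd79a by 1.35 ± 0.19, Pax5 by 1.73 ± 0.21 and Fcer2a by 1.66 ± 0.31, with Cd79b, Ms4a1, Cd22 and Blk. Cr2 changed by -0.89 ± 0.27 (adjusted p = 0.0828). In males alone none was called, with changes of -1.13 to -2.70 and adjusted p from 0.0634 to 0.385. In Deficient females fitted alone the contrast was negative for every member and none was called by edgeR. It ran from -0.08 ± 0.19 (Cd79a) to -0.81 ± 0.20 (Ms4a1, adjusted p = 0.0585). The unadjusted p was under 0.05 for Ms4a1, Cd79b, Blk and Cr2, and the share of all genes at that level is not given here.

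Whether the Deficient response itself differed between the times was tested directly, as the ZT17 response minus the ZT05 response. All 8 differences were positive, from 0.80 to 1.63, and none was called by edgeR, where 3.01% of genes were called higher. At an unadjusted p under 0.05 there were 4, beside 24.1% of all genes, and the lowest adjusted p was 0.0537, for Blk. Without the male Control ZT17 replicate 3 library 6 member and tissue pairs were called over all tissues. In females alone, Pax5 was called in lung at 1.61 ± 0.28 (adjusted p = 0.0381; background 0.455%) and Cd79a was at 1.27 ± 0.27 (adjusted p = 0.0534). The smallest differences in that fit were those of Ms4a1 (0.28 ± 0.28) and Cr2 (0.22 ± 0.38). At ZT17 every Deficient female library lay above every Control female library for 7 of the 8 genes, Cr2 being the exception. Of all genes 11.9% did so. At ZT05 this held for 2 genes, Ms4a1 and Cr2, against 9.33% of all genes.

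Other B cell genes followed the same time contrast in Control lung. Of 19 genes of B cell receptor signalling, 15 fell at ZT17, with a median of -0.91 where the median of all genes was -0.01. Among them were Cd72 (-1.80 ± 0.40) and Bank1, an adaptor (-1.73 ± 0.35). Of 15 B cell transcription factors 12 fell, such as Pou2af1 (-1.67 ± 0.33) and Spib (-1.63 ± 0.42). Bcl6, the regulator of germinal centre B cells, rose by 0.39 ± 0.13 (adjusted p = 0.0494). Of 18 further B cell genes 13 fell, led by H2-Ob (-2.30 ± 0.40) and Fcrla (-2.24 ± 0.42), with Tnfrsf13c, the receptor for the survival factor BAFF, at -2.18 ± 0.47.

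The contrast was not limited to B cells. All 13 T cell genes tested fell (median -2.01), as did 5 of 6 NK cell genes and 6 of 6 pan-leukocyte genes, among them Ptprc, which encodes CD45 (-1.39 ± 0.32). Cd8a, of cytotoxic T cells, was at -2.86 ± 0.45. Of 11 macrophage and monocyte genes 2 fell, of 6 neutrophil genes 1, of 7 plasma cell genes 0 and of 3 immature B cell genes 0, and of 6 lung epithelial genes 1 rose and none fell. With 7.38% of all genes called lower, the counts of these 5 short lists are not set apart from the background. The summed neutrophil genes had 35.4 to 43.4 CPM in Control ZT17 females and 70.03 to 114.6 CPM in Control ZT05 females. They had 13.3 to 20.5 CPM in Control ZT17 males and 27.8 to 59.7 CPM in Control ZT05 males. The times do not overlap in either sex, and how often genes at large do so was not counted. The summed T cell genes had 66.7 to 104.9 CPM in Deficient ZT17 females and 125.7 to 175.6 CPM in Deficient ZT05 females, against 61.6 to 75.0 CPM in Control ZT17 females and 124.6 to 132.2 CPM in Control ZT05 females. The difference of the Deficient response between the times was called higher for 7 of 13 T cell genes, 2 of 6 NK cell genes, 3 of 6 neutrophil genes and 2 of 6 pan-leukocyte genes, beside the 3.01% of all genes given above. Cd8a was at 2.83 ± 0.65 (adjusted p = 0.0183) and the neutrophil gene Retnlg at 3.05 ± 0.79 (adjusted p = 0.0299). The same difference was called higher for 4 of 19 receptor signalling genes, 4 of 15 B cell transcription factors and 4 of 18 further B cell genes, but for 0 of the 8 members.

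Averaged over the times, the Deficient response in lung differed by sex. In males all 8 genes fell in Deficient mice, by 1.06 to 2.93 on the log2 scale, with a background of 3.39% of genes called lower. In females the 8 changes were positive, 0.39 to 0.80, and none was called by edgeR (lowest adjusted p 0.365), beside 0.0378% of genes called higher. At an unadjusted p under 0.05 there was 1, beside 10.9% of all genes.

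The male values were widely spread among Controls. Fcer2a had 1.83, 0 and 0.522 CPM in Deficient ZT17 males and 0.326, 0.934 and 1.51 CPM in Deficient ZT05 males. It had 2.33, 2.05 and 6.26 CPM in Control ZT17 males and 24.3, 10.01 and 4.098 CPM in Control ZT05 males. The treatments do not overlap for this gene, although the lowest Controls are close to the highest Deficient males. The share of all genes without overlap in male lung was not counted. Cd79a had 2.38, 1.02 and 1.78 CPM in Deficient ZT17 males and 1.63, 3.50 and 4.28 CPM in Deficient ZT05 males, against 1.40, 2.91 and 20.7 CPM in Control ZT17 males and 31.7, 16.99 and 5.27 CPM in Control ZT05 males. Control ZT17 replicates 1 and 2 lie within the Deficient range, and replicate 3 is the high one.

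Fcer2a fell by 2.93 ± 0.51 in Deficient males (adjusted p = 0.00226), Cr2 by 2.80 ± 0.60 (adjusted p = 0.00901) and Ms4a1 by 2.39 ± 0.49 (adjusted p = 0.00686). Cd79a fell by 2.38 ± 0.50 (adjusted p = 0.00784) and Cd79b by 2.12 ± 0.31 (adjusted p = 0.000949). Cd22 fell by 2.21 ± 0.51 (adjusted p = 0.0137), Pax5 by 1.70 ± 0.46 (adjusted p = 0.0322) and Blk by 1.06 ± 0.27 (adjusted p = 0.0220). Without male Control ZT17 replicate 3, only Cd79b and Fcer2a were called, and the other 6 had changes of -0.72 (Blk) to -1.96 (Cr2). The Pax5 call was also lost without male Control ZT05 replicate 2 or male Deficient ZT05 replicate 1, ZT17 replicate 2 or ZT17 replicate 3, with adjusted p from 0.0626 to 0.0763. The Blk call was also lost without male Deficient ZT05 replicate 1 (0.0658) or ZT17 replicate 1 (0.0519). In males fitted alone only Cd79b was called (-2.15 ± 0.37, adjusted p = 0.0404; background 0.229%). Depth limits these values, since the 8 genes together had 147 to 537 counts in Deficient male libraries and 271 to 6078 counts in Control male libraries. The mitochondrial and rRNA-like share was 33.2 to 54.8% in Deficient males and 42.2 to 66.0% in Control males, and its part in the result was not tested.

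Other B cell genes also fell in Deficient male lung, namely 14 of 19 receptor signalling genes, 9 of 15 transcription factors and 12 of 18 further B cell genes, beside the background of 3.39%. All 5 MHC class II genes, which macrophages and dendritic cells express too, fell as well. H2-Ob fell by 3.04 ± 0.47, Cd180 by 2.62 ± 0.37, Bank1 by 2.40 ± 0.41 and H2-Aa by 1.19 ± 0.16. T cell genes (10 of 13), pan-leukocyte genes (6 of 6) and proliferation genes (5 of 6) fell as well, with Ptprc at -1.89 ± 0.33 and Mki67, a marker of dividing cells, at -2.25 ± 0.35. Of 7 plasma cell genes, 3 immature B cell genes and 5 marginal zone genes, 0 were called. In females no gene of any of these lists was called in that contrast.

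In females fitted alone, 6 of the 8 genes rose in Deficient lung, by 0.41 to 0.83, against a background of 3.15%. The largest was Pax5 at 0.83 ± 0.14 (adjusted p = 0.00966), followed by Ms4a1 at 0.68 ± 0.14 (adjusted p = 0.0196). Cr2 (0.51 ± 0.19) and Fcer2a (0.59 ± 0.21) were not called. The difference of the response between the sexes, female minus male, was itself called for 5 genes in the fit over both sexes, with 0.723% of genes called higher. These were Fcer2a (3.50 ± 0.65), Ms4a1 (3.04 ± 0.63), Cd79a (2.92 ± 0.65), Cd79b (2.58 ± 0.42) and Blk (1.70 ± 0.37). Without male Control ZT17 replicate 3 only Cd79b of them was called. The other 4 calls were each also lost on leaving out other single lung libraries of either sex. Without female Control ZT17 replicate 2, edgeR's adjusted p was 0.0836 for Blk, Cd79a and Ms4a1 and 0.0613 for Fcer2a. Leaving out 1 lung library at a time gave 1 to 8 called pairs.

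**Figure D3:**
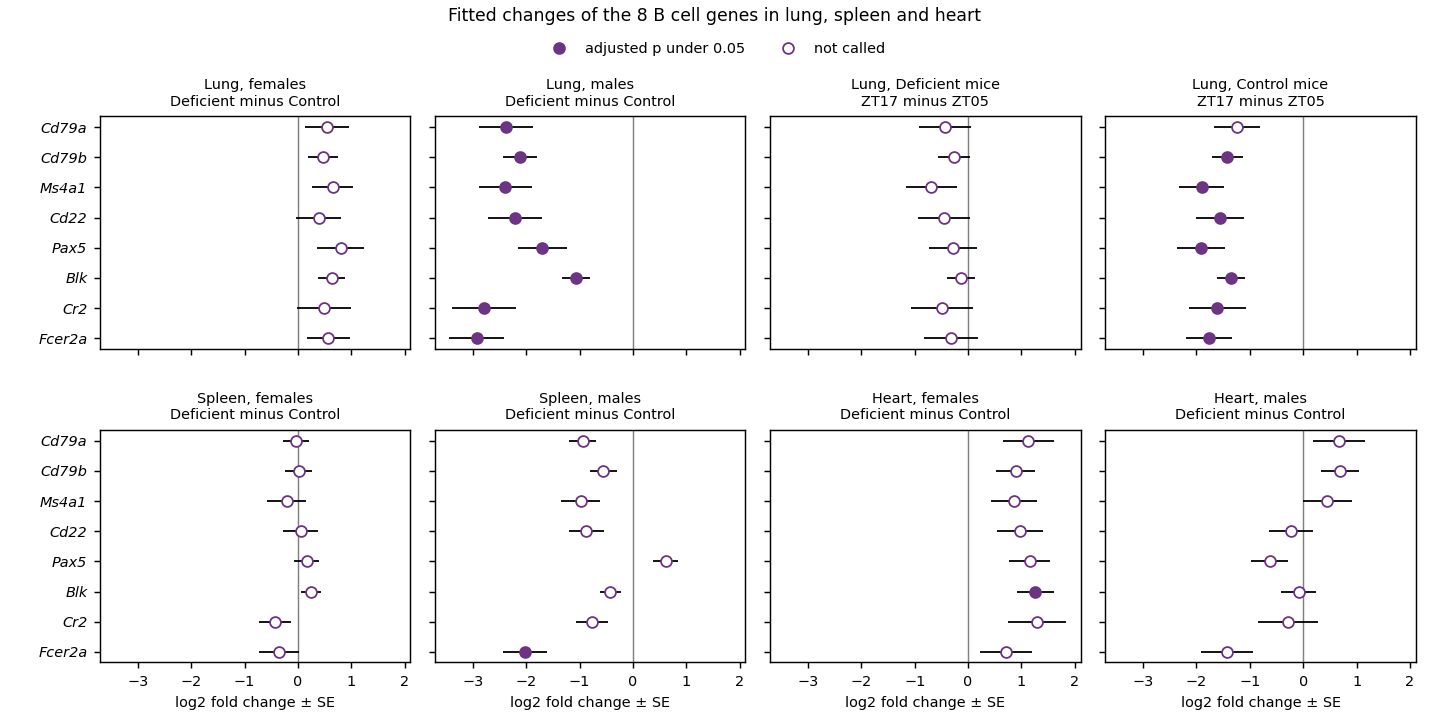
Log2 fold changes ± SE of the 8 genes in lung (top: Deficient minus Control in females and males, then ZT17 minus ZT05 in Deficient and Control mice) and in spleen and heart (bottom: Deficient minus Control). Filled points are called. All 8 points are filled and negative in male lung, 7 in Control lung at ZT17, and 1 each in male spleen (Fcer2a) and female heart (Blk).

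In spleen, where the levels of the 8 genes were highest, the female response was small. None of the 8 genes was called by edgeR in the fit over both sexes, and 0 had an unadjusted p under 0.05, beside 6.91% of all genes. The estimates ran from -0.43 ± 0.30 (Cr2) to 0.25 ± 0.19 (Blk), 4 above and 4 below 0, with 0.0515% of genes called higher and 1.2% lower. Cr2 ran from 582 to 971 CPM in Deficient females (median 663) and from 795 to 1285 CPM in Control females (median 939), with overlap. In females fitted alone Cr2 fell by 0.47 ± 0.13 (adjusted p = 0.0366; background 6.64%). Fcer2a changed by -0.38 ± 0.13 (adjusted p = 0.0683).

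In male spleen Fcer2a was the one called gene, falling by 2.02 ± 0.40 in Deficient males (adjusted p = 0.0204; 0.469% of genes called lower). It had 12.01, 13.4 and 20.97 CPM in Deficient ZT17 males and 7.88, 10.2 and 18.0 CPM in Deficient ZT05 males. It had 33.6, 18.2 and 52.6 CPM in Control ZT17 males and 28.4, 23.3 and 211 CPM in Control ZT05 males. The groups overlap through Control ZT17 replicate 2 alone, and the 211 CPM belong to the library with the low mitochondrial share. Without that library the change was -1.135 (adjusted p = 0.0402). All 8 genes had an unadjusted p under 0.05, beside 18.4% of all genes. Of the 8, 7 were lower and Pax5 was higher (0.61 ± 0.24, adjusted p = 0.178). The library with the low mitochondrial share was the highest male for each of those 7. For Ms4a1 it had 773 CPM, beside 74.9 to 149.5 CPM in the other Controls and 61.2 to 109 CPM in Deficient males. For Cd79a the other Controls had 65.3 to 183 CPM and Deficient males 64.0 to 90.6 CPM. Cd79a changed by -0.94 ± 0.25 (adjusted p = 0.0699).

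This call was fragile. No member was called in males fitted alone, or without the libraries over 100 CPM of Cpa1, a gene of the exocrine pancreas beside the spleen, or without any 1 of male Control ZT17 replicate 3, Deficient ZT05 replicates 1 and 2 and Deficient ZT17 replicates 1 and 2. The adjusted p of Fcer2a was 0.0586 to 0.0716 without one of those 5 libraries. Without male Control ZT05 replicate 1, 6 genes were called, without replicate 2, 5, and without Control ZT17 replicate 2, 2. Of the B cell lists, 0 of 19 receptor signalling genes, 0 of 15 transcription factors and 0 of 18 further B cell genes were called in either sex. Erythroid genes fell in Deficient spleen in both sexes, 9 of 10 in females and 7 of 10 in males, and proliferation genes did so for 6 of 6 in females and 1 of 6 in males.

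**Figure D4:**
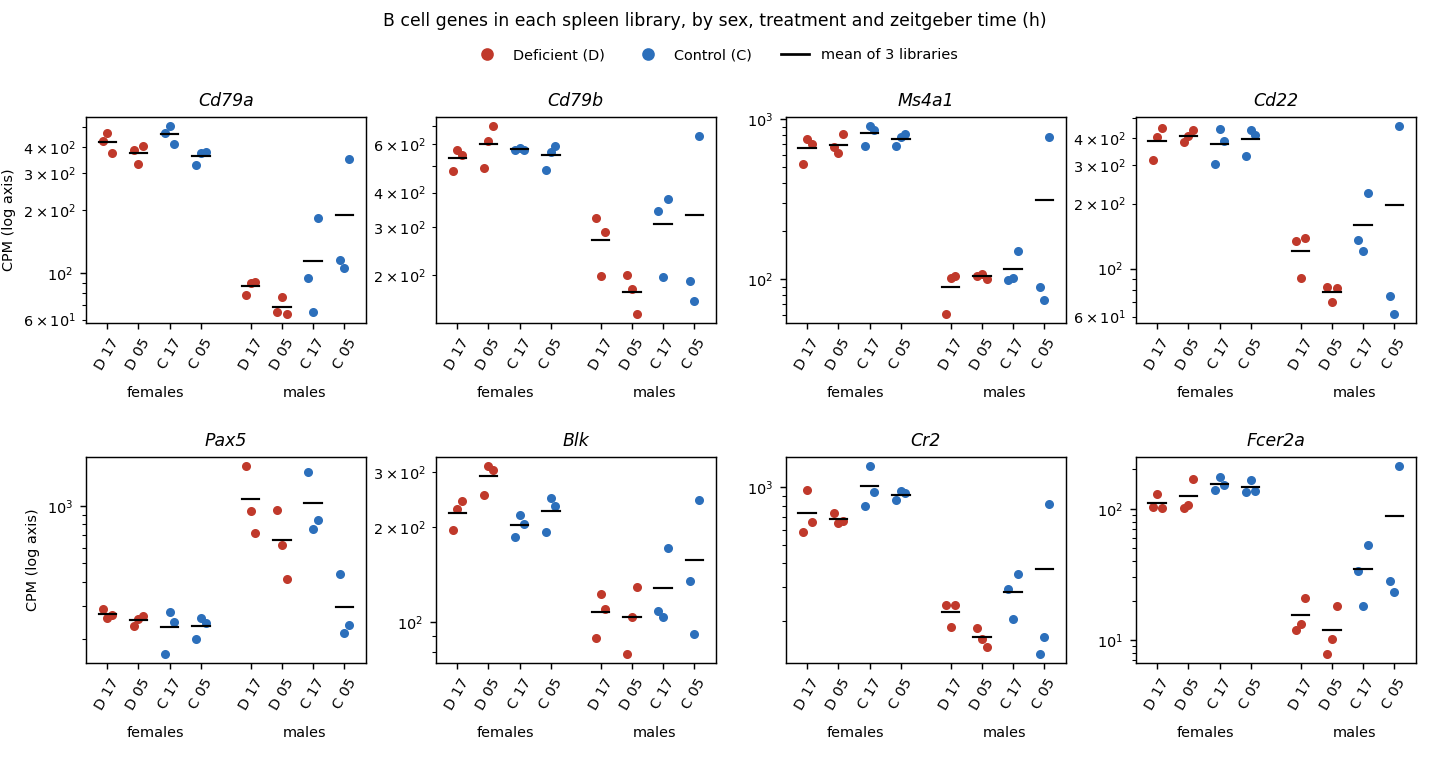
CPM (log axis) of each gene in each of the 24 spleen libraries, arranged and coloured as in lung; bars are means of 3 libraries. Female groups overlap for most genes, male libraries lie lower for all genes but Pax5, and 1 Control male at ZT05 lies at the female level.

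Male and female spleens differed in level for most members. Among Controls, by CPM on unscaled totals, the 5 males numbered 33 to 62 had a median Ms4a1 of 50.2 CPM, against 1237 CPM in the 6 females. Cd79a had 64.4 CPM in those males against 633 CPM in females. The remaining Control male had 1371 CPM of Ms4a1 and 619 CPM of Cd79a, close to the female medians. Pax5 was nearer between the sexes, with 246 CPM in the 5 males and 362 CPM in females. On TMM-scaled sizes its order turns round, with a median of 739 CPM over the 12 males and 257 CPM over the 12 females. Ptprc had 167 CPM in those males and 1716 CPM in females on unscaled totals.

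Pax5 therefore made up a different part of the set in the 2 sexes, which no scaling of library size can change. It took 23.97 to 63.1% of the counts of the 8 genes in the 11 male spleens with a high mitochondrial share, and 5.08 to 9.93% in female spleens. In the remaining male spleen it took 6.35%. In lung it took 20.3 to 41.1% in males and 5.47 to 10.8% in females. Pax5 has the longest annotated span of the 8, 185731 bases, where the others have 3422 to 44202. The share stood beside the mitochondrial share of the library by sex, and the part of RNA quality, of overlapping transcripts (4 annotated within Pax5, 1 on its strand) or of sex in it was not tested.

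**Figure D5:**
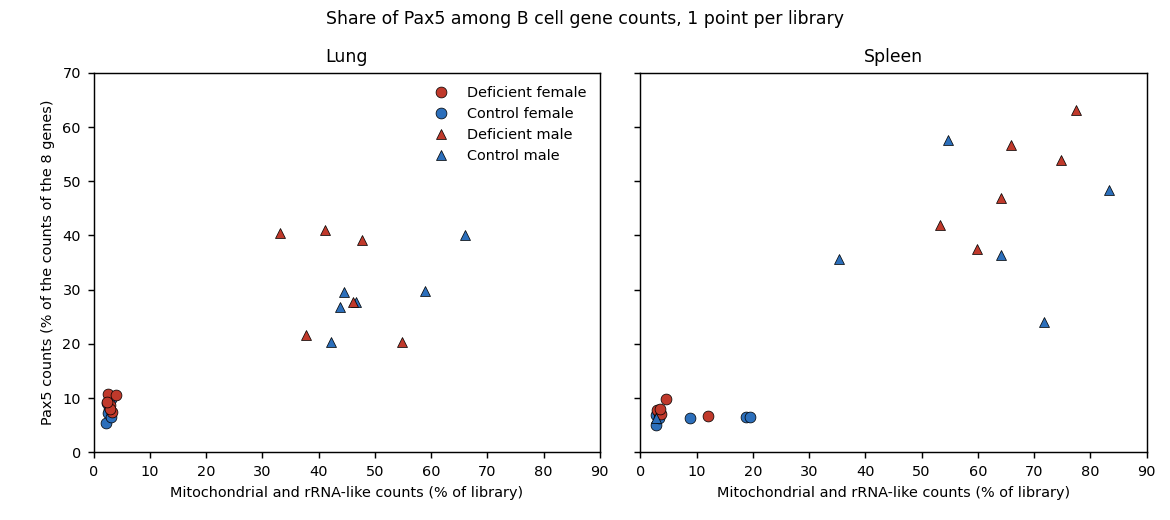
Percent of the counts of the 8 genes that are Pax5 (y) against the percent of all counts in mitochondrial and rRNA-like genes (x), 1 point per library, for lung (left) and spleen (right). Females (circles) lie below 11% on y; males (triangles) lie between 20.3 and 63.1% with the exception of 1 spleen at 6.35%.

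In heart the female estimates were positive for all 8 genes, 0.71 to 1.29, and Blk was called (1.26 ± 0.34, adjusted p = 0.0466; background 1.68%). Blk had 1.33, 1.90 and 0.573 CPM in Deficient ZT17 females and 1.68, 1.78 and 2.43 CPM in Deficient ZT05 females, against 0.309, 1.27 and 0.262 CPM in Control ZT17 females and 0.427, 0.711 and 0.942 CPM in Control ZT05 females. The treatments overlap through Deficient ZT17 replicate 3 alone. Of the members 6 had an unadjusted p under 0.05, beside 17.6% of all genes. The Blk call was lost on leaving out any of 13 of the 24 libraries (adjusted p up to 0.151, without female Control ZT05 replicate 1). In male heart none was called, with estimates of -1.43 (Fcer2a) to 0.69 (Cd79b). Other B cell genes were not called in Deficient female heart, with 0 of 19 receptor signalling genes (median -0.03), 0 of 15 transcription factors (median 0.15) and 0 of 15 further B cell genes tested (median 0.60). Of 5 plasma cell genes tested 1 rose, Jchain, which joins secreted antibody units (3.23 ± 0.78). Of 8 genes of the B cell niche and stroma 1 rose, Cxcl13, the chemokine that draws B cells (2.66 ± 0.72).

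Over the tissues other than spleen and lung, few member and tissue pairs were called. In females 2 rose and 3 fell of 52 pairs tested, heart included, beside backgrounds of 5.62% higher and 5.95% lower over all gene and tissue pairs. In males 0 rose and 2 fell of 44 pairs, beside 3.38% higher and 3.33% lower. These shares lie near or below the background, and tissues share mice.

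In uterus Cd79b had 3.29, 2.64 and 1.35 CPM in Deficient ZT17 females and 3.01, 1.11 and 2.59 CPM in Deficient ZT05 females. It had 5.61, 4.23 and 8.06 CPM in Control ZT17 females and 13.4, 6.93 and 9.02 CPM in Control ZT05 females. The groups do not overlap, though the share of all genes for which this holds in uterus was not counted. Cd79b fell by 1.71 ± 0.32 (adjusted p = 0.00158, background 23.8%), a call that held with each library left out. Its partner Cd79a changed by 0.38 ± 0.45 (adjusted p = 0.521), and Ms4a1 had a median of 0.0586 CPM. Fcer2a fell by 2.14 ± 0.76 (adjusted p = 0.0384). It had only 2 to 10 counts in Deficient libraries and 1 to 118 in Control libraries. It can pass the low-count filter through the Control libraries, where it is high, so this call decides little. The Fcer2a call was lost without any 1 of 8 of the 12 libraries. Without female Control ZT17 replicate 1, which had 4.80 CPM, the change was -1.003 (adjusted p = 0.209).

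In female pituitary Cd79a rose by 2.01 ± 0.45 (adjusted p = 0.0231; background 0.904%). It had 2.51, 2.88 and 10.5 CPM in Deficient ZT17 females and 3.36, 3.35 and 1.58 CPM in Deficient ZT05 females, against 1.75, 1.03 and 0.559 CPM in Control ZT17 females and 0.757, 0.816 and 0.822 CPM in Control ZT05 females. Deficient ZT05 replicate 3 lies just below the highest Control. The call was lost without any 1 of 5 libraries, with a change of 1.49 (adjusted p = 0.0958) without Deficient ZT17 replicate 3, which was high for all members.

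In male kidney Cd79b fell by 0.76 ± 0.25 (adjusted p = 0.0193) and Cd79a by 0.98 ± 0.36 (adjusted p = 0.0333) in a tissue where 20.8% of genes were called lower. Cd79a had 0.623, 0.539 and 1.59 CPM in Deficient ZT17 males and 0.250, 1.002 and 0.606 CPM in Deficient ZT05 males, against 0.922, 2.89 and 0.833 CPM in Control ZT17 males and 1.503, 1.96 and 0.942 CPM in Control ZT05 males, so the groups overlap. The Cd79a call was lost without any 1 of 7 libraries (a change of -0.59 with an adjusted p of 0.212 without male Control ZT17 replicate 2) and the Cd79b call without male Control ZT05 replicate 2 (0.0525) or Deficient ZT17 replicate 2 (0.0576). In soleus Cd79b fell by 1.36 ± 0.44 in Deficient females (adjusted p = 0.0306; background 9.48%), but by 0.45 (adjusted p = 0.381) without female Control ZT17 replicate 3, whose summed level of 6.06 CPM compares with 0.505 to 2.10 CPM in the other 11.

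Outside lung, 2 pairs were called for the time of day in Control mice, both lower at ZT17. They were Cd22 in kidney (-1.60 ± 0.40, adjusted p = 0.0104; background 7.5%) and Pax5 in brown adipose tissue (-3.23 ± 0.99, adjusted p = 0.0299; background 8.35%). Pax5 was the only member tested in brown adipose tissue. It had 24, 9 and 9 counts in Control ZT05 males and 0 to 8 in every other library. It can pass the low-count filter through the group where it is high, so this call decides little. The Pax5 call was lost without any 1 of 7 of 24 libraries, with adjusted p up to 0.0733 without female Control ZT17 replicate 3. Without male Control ZT17 replicate 1 the change was -5.95 (adjusted p = 0.0506).

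Genes whose level varied most like the mean of the 8 over the 24 spleen libraries, with group means removed, were Fcrla (r = 0.967), Ufl1 (0.965), Cd37 (0.965), Ero1lb (0.963), Mtdh (0.963) and Srpk3 (0.952). Within the 12 females alone the same r was 0.864 for Fcrla but 0.494 for Ufl1. Over the medians of 19 tissues the most alike included Pou2af1 (0.996), Cd3e (0.990), Spib (0.990), Slamf6 (0.989) and Fcrl1 (0.988), and spleen is the highest point for all of them.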

How the data were processed

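Bulk RNA-seq was measured in 419 libraries of 19 tissues. Per the labels' protocols, RNA was extracted with TRIzol and 500 ng went into polyA-selected, stranded TruSeq libraries. The submitters' processing notes name STAR 2.7.10a with GRCm38/mm10, DESeq2 1.34.0, and for the reads cutadapt 4.1 and FastQC 0.11.9. The counting tool, its annotation and its strand setting are not given in the sources used here, so overlapping transcripts may share reads. The deposited raw counts per gene were used as the authors gave them, and the normalised table was not used.

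Columns were matched to samples by library name. Each tissue was fitted with edgeR 4.0.16 in R 4.3.3 (quasi-likelihood test, TMM scaling, filterByExpr with a minimum count of 10), with a separate mean for every combination of sex, time and treatment. Benjamini-Hochberg adjustment ran over all genes tested in the tissue. Averages weight groups equally. The script was tested on simulated data. P-values measure the spread between mice within groups, and each main fit shares that estimate over all groups of a tissue, both sexes included. The spread can differ by sex. In lung the SE of the Cd79a response was 0.135 in females fitted alone and 0.615 in males fitted alone. Totals per library were 5777450 to 53598697 counts, and counting error adds most at low counts.

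Genes were named by a rule: all 8 members in every tissue, and from each list, per comparison, up to 4 called genes with the largest change and any called gene against its list's majority, of which the text gives a part. For likeness, the 6 genes with the highest Pearson r of log2(CPM + 1) with the mean of the members were named, among genes averaging at least 8 CPM, passing over predicted genes. A few genes named by these rules are not reported here. The members and lists were chosen with earlier results of these data known. Alternatives were DESeq2, DESeq2 size factors, other filters, single-sex fits and a replicate block. Further ones were a term for the second set of males, removal of mitochondrial genes and each library left out.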

Additional observations from a re-analysis of the deposited data

Results flagged for a closer look

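In 7 of 64 groups of 6 libraries tested by Dixon's criterion, the highest or lowest library was far from the rest, and chance flags about 1 in 20 such groups. In spleen, female Control ZT05 replicate 1 was low for Cd79b at 481.8 CPM (nearest 563.5), and female Control ZT17 replicate 2 was high for Cr2 at 1285 CPM (nearest 955.7).

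Male Control ZT05 replicate 3 was high in spleen for Ms4a1 at 773.3 CPM (nearest 149.5), Cr2 at 817.4 CPM (nearest 354.4) and Fcer2a at 210.8 CPM (nearest 52.64). This is the spleen library from the second set of males, with 2.79% of counts in mitochondrial and rRNA-like genes. Male Deficient ZT17 replicate 1 was low in spleen for Ms4a1 at 61.16 CPM (nearest 100.7). In lung, male Control ZT05 replicate 1 was high for Fcer2a at 24.28 CPM (nearest 10.01).

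The response of lung to deficiency differed between the sexes, female minus male on the log2 scale, by 1.699 for Blk (adjusted p = 0.0389), 2.921 for Cd79a (0.0389), 2.582 for Cd79b (0.0187), 3.498 for Fcer2a (0.0233) and 3.041 for Ms4a1 (0.0389), in edgeR's quasi-likelihood test. All 5 estimates were negative in males and positive in females. Apart from that of Cd79b, these calls were lost on leaving out single lung libraries of either sex. Male and female lung libraries do not overlap in their mitochondrial and rRNA-like share, so sex and that share cannot be told apart.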

How the results depend on the processing

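No called value changed sign under the alternatives run. Counts of called members or member and tissue pairs did change. In female spleen (main 0), females fitted alone gave 1. In male spleen (main 1), DESeq2 gave 2, no low-count filter 5, males fitted alone 0 and omission of the libraries with over 100 CPM of Cpa1, chosen after the data were seen, 0. In lung, females fitted alone gave 6 (main 0) and males fitted alone 1 (main 8). Outside spleen and lung in females (main 5), DESeq2 gave 10, no filter 14 and the stricter filter 3. In males (main 2), no filter gave 5, males fitted alone 1 and the stricter filter 0. For the sex difference (main 5), DESeq2 gave 10, no filter 13 and the replicate block 2. For the time difference (main 0), DESeq2, the stricter filter and the replicate block each gave 1, as did the term for the second set of males. Females fitted alone gave 2 and no filter 4. For ZT17 minus ZT05 in Control mice (main 9), no filter gave 18 and males fitted alone 0; in Deficient mice every setting gave 0 apart from single libraries left out. The single-sex fits of the time contrasts were chosen after the data were seen. Removing the filter tests more members, and fitting 1 sex uses fewer libraries; otherwise the cause was not tested.

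With 1 library left out at a time, the counts ran from 0 to 0 in female spleen, 0 to 6 in male spleen, 0 to 0 in female lung, 2 to 8 in male lung, 4 to 6 and 0 to 3 elsewhere in females and males, 1 to 8 for the sex difference, 0 to 6 for the time difference, 7 to 10 for the time of day in Control mice and 0 to 1 in Deficient mice. The low end in male lung came without male Control ZT17 replicate 3. Of 2496 such values for single genes, 143 lost and 34 gained a call. Of 856 under the other alternatives, 26 lost and 32 gained one. Same-numbered replicates did not deviate together (mean r -0.034 to 0.076 by tissue), so the numbers give no pairing. With the replicate block, the sex differences of Blk, Cd79a and Ms4a1 in lung (adjusted p 0.0535, 0.0564 and 0.0535), Blk in female heart (0.0503) and Fcer2a in uterus (0.057) were not called, and the time difference of Blk in lung was (0.0491). The spleen to lung ratio in females was 41.3 on unscaled totals and 43.4 outside mitochondrial and rRNA-like counts (main 32.7). Depth limits the male heart, liver and spleen values, where counts outside those genes fell to 271143.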

Other observations

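In spleen of Deficient mice erythroid genes had a median log2 change of -4.82 in females and -4.45 in males over 10 genes. The 6 proliferation genes had medians of -2.14 in females and -1.73 in males, where the median of all genes was 0.03 in females and -0.04 in males. In female spleen the neutrophil gene Retnlg rose by 1.98 ± 0.49 (adjusted p = 0.0469, edgeR's quasi-likelihood test), and of 13 T cell genes all had positive estimates (0.09 to 0.47) with 0 called.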
